A study of Homo sapiens with 6 samples.

Results

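Condensin is the chromosome-compacting machine of dividing cells, and its 8 subunit genes were followed here after knockdown of RBP2, the older name of the histone H3 lysine 4 demethylase KDM5A. The 8 genes were taken by name from the platform annotation (SMC2, SMC4, NCAPD2, NCAPG, NCAPH, NCAPD3, NCAPG2 and NCAPH2). They are 8 of 19775 genes with a probe set of their own and are represented by 16 of 54613 probe sets. H1299 cells come from a human lung carcinoma of the non-small-cell type. All cells were infected with a lentivirus carrying a short hairpin RNA (shRNA) and harvested after 72 hours. KD1 cells carried 1 shRNA against RBP2, KD2 cells carried another, and SC cells carried a scramble shRNA. Each of the 3 groups had 2 arrays, numbered replicate 1 and replicate 2. No label states that the replicates of a group came from different cultures, and each p-value therefore reflects the spread between these arrays alone, which may be technical. The labels also do not say whether the infected cells were selected, or whether they were a clone or a pool.

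Condensin exists as 2 complexes built on the same ATPase core of SMC2 and SMC4. Condensin I adds the kleisin NCAPH, which closes the ring, and the HEAT-repeat subunits NCAPD2 and NCAPG, whereas condensin II adds their paralogs NCAPH2, NCAPD3 and NCAPG2. Condensin II is nuclear through interphase and starts to compact chromosomes in prophase, and condensin I reaches them after the nuclear envelope breaks down. In proliferating cells many of these genes are transcribed mainly in late S and G2 phase, when the repressive DREAM complex is replaced at their promoters by activators such as B-MYB and FOXM1. DREAM and B-MYB contact DNA through the cell cycle genes homology region (CHR), and E2F sites and CCAAT boxes are other elements of such promoters.

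Promoter sequences are given for 4 of the 5 subunits whose transcripts were lower by more than 2 on the log2 scale in KD2 cells, those with a searched motif upstream of the start. They are the 250 bases before the annotated start, from RefSeq on build GRCh38.p14, on the plus strand. Capitals mark the motifs searched on both strands: CHR (TTTGAA or its variant TTCGAA), the CCAAT box (CCAAT) and E2F sites (TTTCCCGC, TTTGGCGC and the shorter TTCCCGC and TTGGCGC, which lie within them). The windows are chr4:17810729-17810978 for NCAPG, chr2:96335516-96335765 for NCAPH, chr3:160399400-160399649 for SMC4 and chr12:6493852-6494101 for NCAPD2.
NCAPG: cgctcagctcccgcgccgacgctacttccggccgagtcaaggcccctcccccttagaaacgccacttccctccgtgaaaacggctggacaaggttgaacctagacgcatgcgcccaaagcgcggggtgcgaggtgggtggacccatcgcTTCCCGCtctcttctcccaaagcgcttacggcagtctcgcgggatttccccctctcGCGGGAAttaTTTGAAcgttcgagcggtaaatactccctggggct
NCAPH: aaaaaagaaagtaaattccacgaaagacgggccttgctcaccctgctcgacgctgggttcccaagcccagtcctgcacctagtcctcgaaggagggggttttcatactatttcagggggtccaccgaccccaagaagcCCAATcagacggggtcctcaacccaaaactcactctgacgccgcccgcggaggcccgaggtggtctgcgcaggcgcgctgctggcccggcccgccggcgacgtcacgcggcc
SMC4: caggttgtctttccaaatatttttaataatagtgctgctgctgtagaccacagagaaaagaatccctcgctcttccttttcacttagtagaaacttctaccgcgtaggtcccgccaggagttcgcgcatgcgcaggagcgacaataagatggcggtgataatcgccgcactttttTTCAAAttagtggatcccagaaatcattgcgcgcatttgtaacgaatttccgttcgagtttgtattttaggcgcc
NCAPD2: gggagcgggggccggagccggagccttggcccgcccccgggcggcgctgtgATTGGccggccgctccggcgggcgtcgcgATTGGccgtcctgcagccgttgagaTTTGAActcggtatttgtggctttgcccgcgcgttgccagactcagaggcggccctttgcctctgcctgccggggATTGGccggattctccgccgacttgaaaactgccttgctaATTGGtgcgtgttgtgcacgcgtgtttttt
In the NCAPG window a CHR began 35 bases before the start, with a short E2F site in reverse 45 bases and another in forward orientation 101 bases before it. The NCAPD2 window held a CHR and 4 reverse CCAAT boxes, the SMC4 window held a reverse CHR 75 bases before the start, and the NCAPH window held 1 CCAAT box and no CHR. Over the full windows, which run 250 bases before to 50 after each start, RefSeq gave 10 windows for 7 of the subunits. CHR was in at least 1 window of 6 of these 7 genes (SMC2, SMC4, NCAPD2, NCAPG, NCAPD3 and NCAPG2), against 18.2% of all 27305 genes. The NCAPG2 match lay after the start. By window, CHR was in 6 of the 10, against 15.2% of all 35116 windows of the table. CCAAT was in 3 of the 10 windows, against 34.6% of all. TTCCCGC was in 2 of them, against 6.55% of all, and TTTCCCGC in 1 of them, overlapping it, against 1.63% of all. These matches describe the letters of the windows and were not tested.

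Checks of the cells and labels came first. KDM5A measured 7.42 and 7.27 in KD1 cells and 6.66 and 6.72 in KD2 cells, against 9.35 and 9.42 in SC cells, all as log2 values. Its log2 fold change was -2.04 ± 0.11 with KD1 and -2.69 ± 0.11 with KD2 (SE, limma adjusted p = 0.00475 and 0.00237). Of the epithelial markers KRT18 lay at 12.8 to 13.2 and KRT8 at 9.80 to 10.7, whereas EPCAM, KRT19 and CDH1 did not exceed 2.30, at or near the lowest value of the table. The lung markers NKX2-1, SFTPC and SCGB1A1 did not exceed 2.82 on any array. SFTPB lay between 4.96 and 5.17. The blood markers PTPRC, CD3E and LYZ, the endothelial markers PECAM1, VWF and CDH5, and 4 of 5 fibroblast markers did not exceed 2.34. The fifth fibroblast marker, COL1A1, lay between 6.20 and 7.02. The median over the 10526 tested genes lay between 8.49 and 8.56 on all 6 arrays. In bulk RNA, fewer cycling cells and less RNA per cycling cell cannot be told apart.

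The SMC core fell with KD2, and neither core subunit passed with KD1. SMC4 measured 12.12 and 11.22 in KD1 cells and 9.91 and 9.53 in KD2 cells, against 12.42 and 11.83 in SC cells. SMC2 measured 9.97 and 9.19 in KD1 cells and 7.70 and 7.44 in KD2 cells, against 9.47 and 8.79 in SC cells. For both genes the 2 KD2 arrays lay below the other 4 arrays, and the KD1 and SC arrays overlapped. SMC4 was 5.30-fold lower in KD2 cells (log2 fold change -2.40 ± 0.37, SE, limma adjusted p = 0.0109) and SMC2 was 2.95-fold lower (-1.56 ± 0.35, adjusted p = 0.0269). In KD1 cells the log2 fold changes were -0.45 ± 0.37 for SMC4 (adjusted p = 0.482) and 0.45 ± 0.35 for SMC2 (adjusted p = 0.458). The 95% intervals with KD1 ran from -1.40 to 0.49 for SMC4 and from -0.44 to 1.33 for SMC2.

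All 3 condensin I subunits fell with KD2, and NCAPG had the largest change measured on both sides. NCAPG, a HEAT-repeat subunit of condensin I, measured 11.83 and 10.71 in KD1 cells and 8.20 and 8.06 in KD2 cells, against 12.01 and 11.42 in SC cells. NCAPH, its kleisin, measured 7.70 and 6.01 in KD1 cells and 3.84 and 3.72 in KD2 cells, against 7.86 and 6.57 in SC cells. NCAPD2, the other HEAT-repeat subunit, measured 10.54 and 9.70 in KD1 cells and 7.94 and 7.81 in KD2 cells, against 10.43 and 9.73 in SC cells. The KD2 arrays were again the 2 lowest for each gene, and the KD1 arrays overlapped the SC arrays. NCAPG had a log2 fold change of -3.58 ± 0.41 in KD2 cells (adjusted p = 0.00576), and 0.371% of tested genes had a log2 fold change as low or lower. NCAPD2 was 4.60-fold lower (-2.20 ± 0.36, adjusted p = 0.0125). NCAPH averaged 3.78 in KD2 cells, below the mean of 4 that a gene needed to be tested, and it was tested through its KD1 and SC arrays. Its fitted change (-3.44 ± 0.67, adjusted p = 0.0196) therefore has no exact size, and with KD2 set at 4 it was at least 9.30-fold lower. With KD1 the log2 fold changes were -0.45 ± 0.41 for NCAPG, -0.36 ± 0.67 for NCAPH and 0.04 ± 0.36 for NCAPD2, with adjusted p of 0.534, 0.774 and 0.966. The widest of the KD1 intervals was that of NCAPH, from -2.09 to 1.36.

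In condensin II, NCAPG2 and NCAPD3 fell with KD2, and the kleisin did not pass. Each of its subunits had a smaller log2 fold change than its condensin I paralog. NCAPG2, the paralog of NCAPG, measured 9.61 and 8.56 in KD1 cells and 7.25 and 7.05 in KD2 cells, against 10.09 and 9.28 in SC cells. NCAPD3, the paralog of NCAPD2, measured 9.13 and 8.33 in KD1 cells and 6.57 and 6.65 in KD2 cells, against 8.70 and 7.94 in SC cells. NCAPG2 was 5.81-fold lower in KD2 cells (-2.54 ± 0.43, adjusted p = 0.0137) and NCAPD3 3.27-fold lower (-1.71 ± 0.36, adjusted p = 0.0238). The kleisin NCAPH2 measured 5.82 and 4.73 in KD1 cells and 4.52 and 4.52 in KD2 cells, against 5.95 and 5.38 in SC cells. Its KD2 arrays lay below the other 4, and its log2 fold change of -1.14 ± 0.40 missed the threshold (adjusted p = 0.0852) but was called with the replicate number as a block (adjusted p = 0.0235). The KD2 arrays of NCAPH2 differed by 0.0043, the smallest gap of the 8 subunits within a group, and the lowest value this probe set can give is not known, so the size of its change may be bounded by that value. With KD1 the log2 fold changes were -0.60 ± 0.43 for NCAPG2, 0.41 ± 0.36 for NCAPD3 and -0.39 ± 0.40 for NCAPH2 (adjusted p = 0.418, 0.518 and 0.575).

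**Figure D1:**
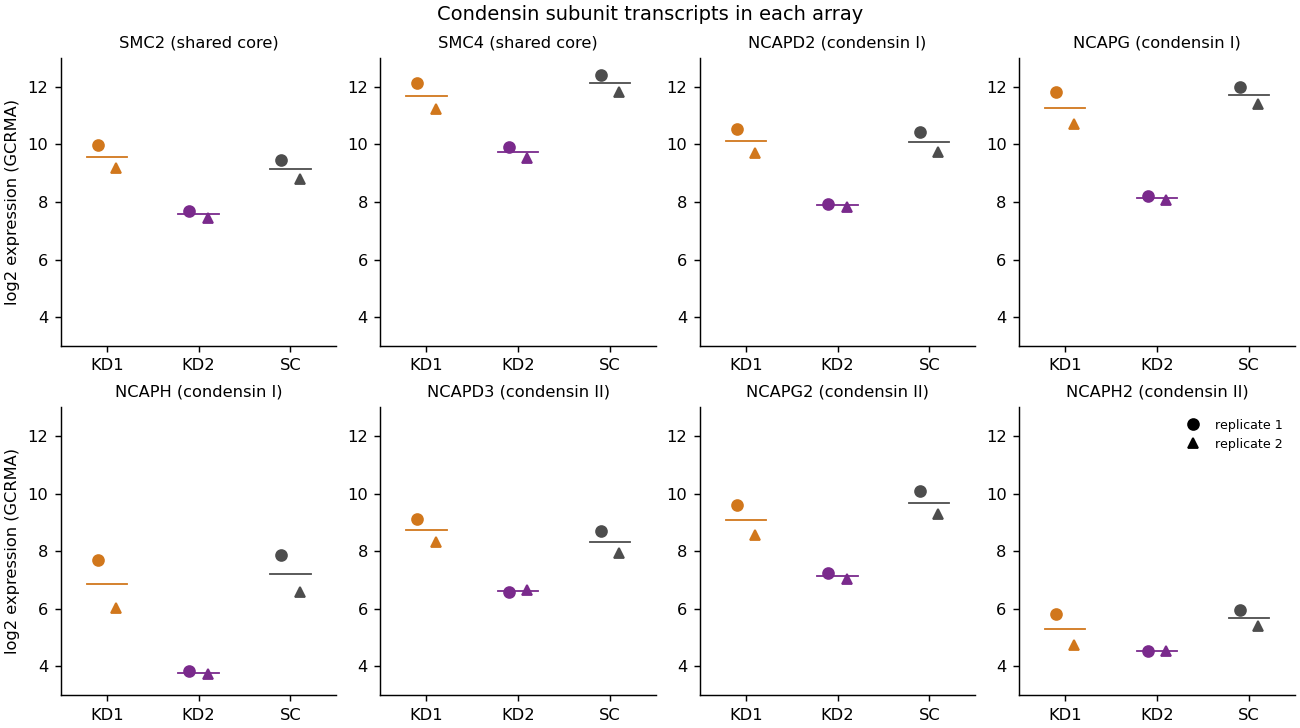
Log2 expression (y axis) of the 8 condensin subunits in KD1, KD2 and SC cells, with a circle for replicate 1, a triangle for replicate 2 and a line for the mean of the 2 arrays. The KD2 arrays are the lowest 2 of the 6 in every panel, at 3.72 and 3.84 for NCAPH, and replicate 1 lies above replicate 2 in every KD1 and SC pair.

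Counted over the complex, 7 of 8 subunits were called lower with KD2 and none higher, against 14.4% of tested genes called lower and 16.7% called higher. Without NCAPH, which is dim in KD2 cells, the count was 6 of 7. A call means a limma adjusted p under 0.05, adjusted over all 10526 tested genes. With the replicate number as a block 8 of 8 were called, against 22.2% of tested genes. The median log2 fold change of the subunits was -2.30 with KD2 and that of all tested genes was 0.08. In all 8 subunits both KD2 arrays lay below all 4 other arrays, as they did in 22.8% of tested genes. With KD1 0 of 8 were called by limma, against 7.9% of tested genes called lower and 3.62% called higher, and 0 had an unadjusted p under 0.05. The median of the subunits with KD1 was -0.38 and that of all tested genes was 0.00. With the block the count with KD1 was also 0 (3 had an unadjusted p under 0.05), against 16.8% of tested genes called lower and 12.8% called higher, and the smallest adjusted p was 0.0831. In no subunit did both KD1 arrays lie below both SC arrays, as in 27.4% of tested genes, or above them, as in 26.4%. Both comparisons use the same SC arrays. In the mean of both shRNAs NCAPG alone was called lower (-2.01 ± 0.36, adjusted p = 0.032), against 6.92% of tested genes, and with the block 6 were called, against 17.5% of tested genes. The block left NCAPD3 and NCAPH2 not called in that mean.

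The shRNAs differed from each other in 7 of 8 subunits. All 7 were higher in KD1 than in KD2 cells, against 17.8% of tested genes called higher. NCAPG showed the largest difference (3.14 ± 0.41 on the log2 scale, 8.80-fold, adjusted p = 0.00478), and without NCAPH the count was 6 of 7. NCAPH, dim in KD2 cells, had a fitted difference of 3.08 ± 0.67 (adjusted p = 0.0203), with an interval from 1.35 to 4.80. With KD2 set at 4 its KD1 mean was 7.24-fold higher, again without the spread between arrays. The other 5 that passed differed by 1.93 (NCAPG2) to 2.24 (NCAPD2). In all 8 subunits both KD2 arrays lay below both KD1 arrays, as in 32.2% of tested genes. NCAPH2 differed by 0.75 ± 0.40, which did not pass (adjusted p = 0.188), with an interval from -0.26 to 1.77. KDM5A itself was 7.42 and 7.27 in KD1 cells and 6.66 and 6.72 in KD2 cells.

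**Figure D2:**
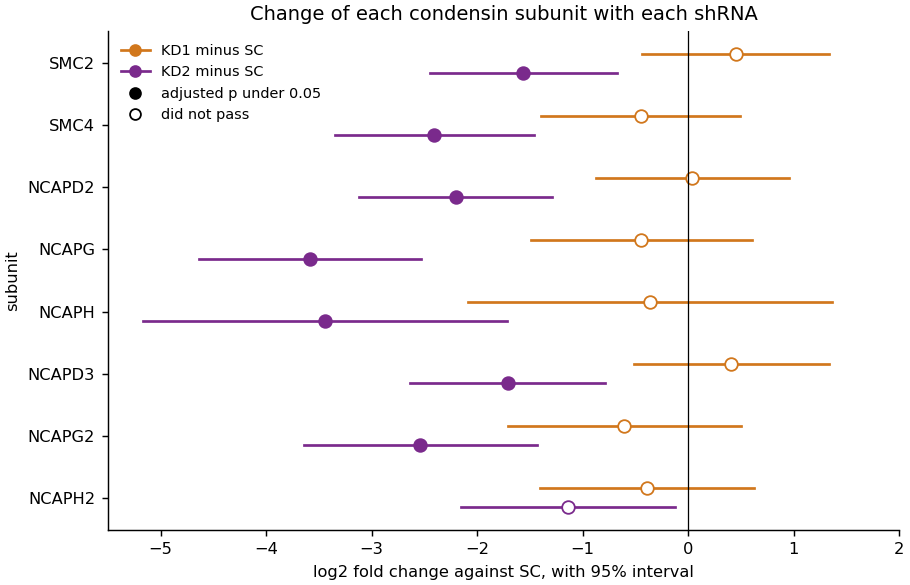
Log2 fold change (x axis) of each subunit for KD1 minus SC and KD2 minus SC, with the 95% interval of the limma model. Filled points have an adjusted p under 0.05. With KD2 the values run from -3.58 for NCAPG to -1.14 for NCAPH2, and every KD1 interval includes 0.

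The KD2 calls rested on few arrays, as did many of the KD2 calls over all tested genes, while the direction of the subunits did not change. Leaving out an array leaves 1 array in its group. Without KD2 replicate 1, KD2 replicate 2 or SC replicate 1, all or nearly all subunit calls were lost. Part of the calls over all tested genes remained in each case. Without SC replicate 2 most subunit calls were kept, and with either KD1 array left out none was lost. With an array left out, the KD2 log2 fold change lay between -1.90 and -1.22 for SMC2 and between -1.43 and -0.86 for NCAPH2. The log2 fold change of NCAPG with KD2 lay between -3.88 and -3.29 and that of NCAPH between -4.08 and -2.80 over these omissions. With no filter on dim probe sets 1 of 8 was called, against 1470 of all 19775 genes called in either direction. For KD1 against KD2, most subunit calls were also lost without KD2 replicate 1 or without KD2 replicate 2. Part of the calls over all tested genes remained. The difference of NCAPG between the shRNAs lay between 2.58 and 3.70 with an array left out.

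Replicate 1 lay above replicate 2 in all 8 subunits in KD1 cells, by 0.77 to 1.69, and in all 8 in SC cells, by 0.57 to 1.29. In KD2 cells the differences were smaller, from -0.07 to 0.37, with 7 of 8 above 0. The median difference over all tested genes was 0.00 in KD1, -0.02 in KD2 and 0.00 in SC cells. The list means of late cell cycle genes moved the same way, with replicate 1 above replicate 2 by 1.07 in KD1, 0.54 in KD2 and 0.77 in SC cells. Their part in the subunit differences was not tested. Taken within a replicate number, KD2 minus SC ran from -4.03 to -1.43 in replicate 1 and from -3.36 to -0.86 in replicate 2. KD1 minus SC kept its sign in both replicates for 7 of 8 subunits. SMC2 was above SC by 0.50 and 0.40 and NCAPD3 by 0.42 and 0.39, while SMC4, NCAPG, NCAPH, NCAPG2 and NCAPH2 were below SC in both.

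Other probe sets of the subunits gave the same direction with KD2. Of 12 subunit probe sets bright enough to test, 11 were called lower with KD2 and none higher, against 12.4% of all such probe sets called lower and 12.9% called higher. NCAPG by its other probe set had a log2 fold change of -3.51, SMC2 of -1.53, and SMC4 by the dimmest of its probe sets of -2.09. With KD1 none of the 12 was called, against 6.1% of all such probe sets called lower and 2.83% called higher, and the sign depended on the probe set for both core subunits. SMC2 with KD1 had 0.45 by the brighter and -0.39 by the dimmer probe set, and SMC4 had -0.45, -0.77 and 0.32 from the brightest to the dimmest. The 4 other probe sets of NCAPH2 did not exceed 2.78 on any array and were not tested.

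Condensin I and II were compared through the differences of paralogs within an array, where only changes between groups can be read because each probe set has its own scale. The mean of NCAPD2, NCAPG and NCAPH minus the mean of NCAPD3, NCAPG2 and NCAPH2 was 1.84 and 1.60 in KD1 cells and 0.54 and 0.46 in KD2 cells, against 1.85 and 1.71 in SC cells. The condensin I mean was thus lower by 1.28 relative to the condensin II mean in KD2 than in SC cells, while the change in KD1 cells was -0.06. Both kleisins were dim in KD2 cells, NCAPH at 3.84 and 3.72 and NCAPH2 at 4.52 and 4.52, and without them the KD2 value was -0.77. NCAPG minus NCAPG2 was 2.22 and 2.15 in KD1 cells and 0.94 and 1.01 in KD2 cells, against 1.92 and 2.13 in SC cells. NCAPH minus NCAPH2 was 1.88 and 1.28 in KD1 cells and -0.69 and -0.80 in KD2 cells, against 1.91 and 1.19 in SC cells. The NCAPH pair has no exact size in KD2 cells for the same reason. For both pairs the KD2 arrays stood below all others, and the KD1 and SC values lay close together or overlapped. NCAPD2 minus NCAPD3 was 1.41 and 1.38 in KD1 cells and 1.37 and 1.17 in KD2 cells, against 1.73 and 1.79 in SC cells. In this pair all 4 knockdown arrays lay below both SC arrays, by 0.43 on average. An exact two-sided permutation test over arrays gave p = 0.0667 for this pair in the mean of both shRNAs (4 arrays against 2), the smallest value it allows, and 0.4 after Benjamini-Hochberg adjustment over 12 comparisons. For 2 arrays against 2 the smallest p is 0.333, which every pair reached for KD2 against SC and for KD1 against KD2. The NCAPD2 and NCAPG pairs reached it for KD1 against SC as well. No p was computed for the mean over subunits.

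**Figure D3:**
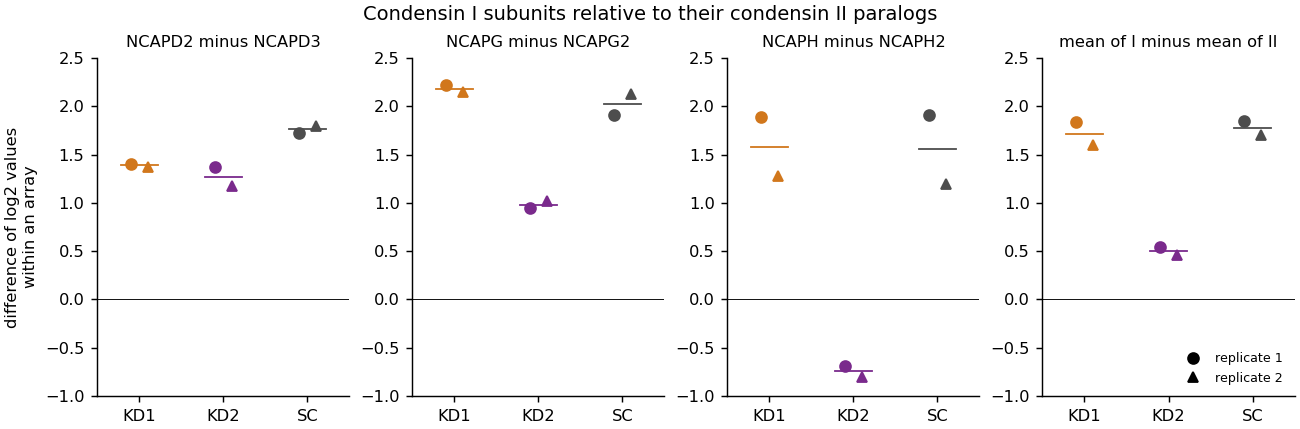
Differences of log2 values within an array (y axis) between each condensin I subunit and its condensin II paralog, and between the means of both sets, in KD1, KD2 and SC cells. Circles are replicate 1, triangles replicate 2, and lines the mean of 2 arrays. In the right panel the KD2 arrays lie at 0.54 and 0.46, and the KD1 and SC arrays lie between 1.60 and 1.85.

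The subunits varied together over the 6 arrays. Pearson's r over the 28 pairs ran from 0.83, for SMC2 with NCAPH2, to 0.996, for SMC4 with NCAPG2. The points are 6 arrays that share the low KD2 group and the replicate difference, and 9.34% of the other tested genes had r above 0.9 with the mean of the subunits. The genes closest to that mean were RFC4, a subunit of the clamp loader of DNA replication, YWHAH, a 14-3-3 protein, BORA, an activator of Aurora A, UHRF1, which maintains DNA methylation, and KNL1 of the kinetochore (r between 0.999 and 1.00, over 6 arrays). RFC4 measured 11.07 and 10.33 in KD1 cells and 9.24 and 9.11 in KD2 cells, against 11.15 and 10.61 in SC cells. The closest gene to a single subunit was SGO2, a protector of centromeric cohesion, for NCAPD2 and CENPE, a kinetochore motor, for NCAPG. CENPI, a centromere protein, was closest to SMC4. For the others it was SSR3 for SMC2, FTSJ1 for NCAPH, ANP32B for NCAPD3, HGS for NCAPG2 and MAGOHB for NCAPH2. A high r does not mean a change of like size. ANP32B lay between 13.63 and 13.91 and HGS between 8.07 and 8.69 on all 6 arrays.

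Among genes that act on or with condensin in mitosis, 10 of 17 tested were called lower with KD2 and 1 higher, with a median of -2.51, against 14.4% of all tested genes lower and 16.7% higher. With KD1 1 of 17 was called higher and none lower, with a median of 0.12, against 3.62% of all tested genes higher and 7.9% lower. TOP2A, the topoisomerase that decatenates mitotic chromosomes, measured 12.07 and 11.05 in KD1 cells and 8.18 and 7.40 in KD2 cells, against 11.95 and 11.31 in SC cells, and fell with KD2 by 3.84 (adjusted p = 0.00629). CDK1, the kinase that phosphorylates condensin in mitosis, fell by 3.06 (adjusted p = 0.0069), and KIF4A, a chromokinesin that binds condensin I, fell by 2.98 (adjusted p = 0.00754). The member that rose with KD2 was PPP2R1A, the scaffold subunit of phosphatase PP2A (0.82, adjusted p = 0.0093), and the member that rose with KD1 was AKAP8, a chromatin-bound anchoring protein (0.74, adjusted p = 0.0253). TOP2B, the isoform that is not restricted to cycling cells, was chosen after its values were seen and had log2 fold changes of 0.12 with KD1 and -0.01 with KD2, and neither passed. CSNK2B, the regulatory subunit of casein kinase 2, had 0.19 with KD1, which did not pass either.

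Genes of the other SMC complexes had list medians nearer to 0 than condensin. Of 15 tested genes of cohesin and its regulators 4 were called lower with KD2 (9 lower and 1 higher with the block), with a median of -0.31, against 14.4% of all tested genes lower (22.2% lower and 28.4% higher with the block). None was called with KD1 (3 higher with the block, against 12.8% of all), where the median was 0.23. The 3 with the smallest adjusted p were PTTG1, which encodes the separase inhibitor securin (-3.12), CDCA5, which encodes sororin (-3.30), and the separase ESPL1 (-3.45). The fourth, RAD21, the cohesin kleisin, had -0.57 (adjusted p = 0.0229) and was named because it completes the count. The cohesin ATPases, shown beside the condensin ATPases and chosen after their values were seen, had log2 fold changes with KD2 of -0.57 for SMC1A (adjusted p = 0.0663) and -0.29 for SMC3 (adjusted p = 0.242). SMC1A measured 11.66 and 11.33 in KD1 cells and 11.04 and 11.06 in KD2 cells, against 11.79 and 11.44 in SC cells. Of the 8 genes of the SMC5/6 complex 2 were called lower with KD2, against 14.4% of all (3 lower and 1 higher with the block), SMC5 (-0.69, adjusted p = 0.0318) and the recruiting factor SLF1 (-1.31, adjusted p = 0.0366). With the mean of all its probe sets SLF1 had -0.70 and was not called (adjusted p = 0.0618). With an array left out SMC5 lay between -0.89 and -0.49 and SLF1 between -1.63 and -0.99. When dim probe sets were not filtered, limma called neither SMC5 (adjusted p = 0.115) nor SLF1 (0.171). PTTG1, CDCA5 and ESPL1 were not called then either (adjusted p = 0.0546, 0.0977 and 0.133), although 2 of 16 cohesin genes were, against 1470 of all 19775 genes. With KD1 2 were called lower, the subunits NSMCE1 (-0.57, adjusted p = 0.0391) and NSMCE2 (-0.52, adjusted p = 0.0414), against 7.9% of all tested genes. NSMCE2 was not called with quantile normalization (adjusted p = 0.0551) or median centring (adjusted p = 0.06). These had 0.29 and 0.36 with KD2, where neither passed, although NSMCE2 passed with the block (adjusted p = 0.0295). The difference between condensin and these complexes was not tested.

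Lists of cell cycle genes from different phases, and of their regulators, were set beside the subunits. The phase of the cells was not measured on these arrays. All 22 late cell cycle genes were called lower with KD2 (median -3.27), against 14.4% of all tested genes. CKAP2L, at 2.54 and 2.38 in KD2 cells, was tested through its KD1 and SC arrays, so its fall has no exact size. At a mean of at least 6, which left CKAP2L out, 21 of 21 were called, against 3024 of 8867 genes in either direction. With KD1 none was called (median -0.05), against 7.9% of all tested genes lower and 3.62% higher. The block gave 1 higher and 1 lower with KD1, against 12.8% and 16.8% of all. Examples with KD2 were KIF11, the spindle kinesin (-3.12 ± 0.28, adjusted p = 0.00401), CENPE (-3.74 ± 0.38, adjusted p = 0.00483) and CDC25C, the phosphatase that activates CDK1 (-4.46 ± 0.47, adjusted p = 0.00498). KIF11 measured 10.50 and 9.86 in KD1 cells and 6.53 and 6.79 in KD2 cells, against 10.03 and 9.54 in SC cells. Of 19 G1/S and replication genes 11 were called lower with KD2, against 14.4% of all tested genes (18 with the block, against 22.2% of all). The median was -1.99, and the 11 included the histone mRNA binding protein SLBP (-1.82) and the helicase component GINS2 (-4.21). Also among them, CDC45 (3.05 and 3.05 in KD2 cells) and CDC6 (4.22 and 2.86) were tested through their KD1 and SC arrays. Their falls have no exact size. When every probe set of a gene was averaged, GINS2 had -1.54, CDC25C -2.57 and TOP2A -2.64 with KD2, and each was called. With KD1 2 of 19 were called lower, near the 7.9% of all tested genes. They were CCNE1, cyclin E1 (-2.58, adjusted p = 0.0175), and MCM6, a helicase subunit (-1.59, adjusted p = 0.0468), and the list median was -0.15. By the mean of all its probe sets CCNE1 had -1.29 with KD1 and was called, and MCM6 was not (adjusted p = 0.054). CCNE1 measured 5.16 and 4.18 in KD1 cells and 7.35 and 7.12 in KD2 cells, against 7.38 and 7.12 in SC cells. The regulators named for such promoters, DREAM subunits with B-MYB and FOXM1, had 1 of 11 called lower with KD2 (median -0.25), near the 14.4% of all tested genes. It was the DREAM subunit LIN9 (-0.59, adjusted p = 0.0189). With the block 4 of 11 were called lower, against 22.2% of all tested genes. The count depended on the processing. At a mean of at least 6, 4 of 10 were called, against 3024 of 8867 genes in either direction. With all probe sets averaged 0 of 9 were called, against 2913 of 9555. With KD1 1 of 11, the pocket protein RBL1, was called lower (-1.30, adjusted p = 0.0489), near the 7.9% of all tested genes. With the block RBBP4, a histone-binding subunit, was also called, higher (0.47, adjusted p = 0.0324 with the block and 0.0719 without), against 12.8% of all. FOXM1 had -1.90 with KD2 (adjusted p = 0.0525, and 0.00153 with the block) and 0.10 with KD1. MYBL2, which encodes B-MYB and was added after its values were seen, had -1.98 with KD2 (limma adjusted p = 0.0666) and 0.40 with KD1. Without SC replicate 1 or 1 of the KD2 arrays, most or all KD2 calls were lost among late cell cycle genes and condensin partners. The same held for G1/S and replication genes and for cohesin and its regulators. Without SC replicate 2 most calls of late cell cycle genes and partners were kept, and G1/S and cohesin calls were fewer. Calls over all tested genes fell as well in each case, but part of them remained. With an array left out, the KD2 log2 fold change lay between -3.37 and -2.88 for KIF11 and between -4.92 and -3.51 for GINS2. That of TOP2A lay between -4.23 and -3.45. When dim probe sets were not filtered, 6 of 22 late cell cycle genes were called with KD2, in either direction. So were 1 of 20 G1/S and replication genes and 1 of 18 condensin partners, against 1470 of all 19775 genes. Of the list genes called with KD1 (AKAP8, NSMCE1, NSMCE2, CCNE1, MCM6 and RBL1) none was called by limma with no filter (adjusted p = 0.0519 to 0.208). With any array left out only CCNE1 was called, without KD1 replicate 1 or without KD1 replicate 2.

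**Figure D4:**
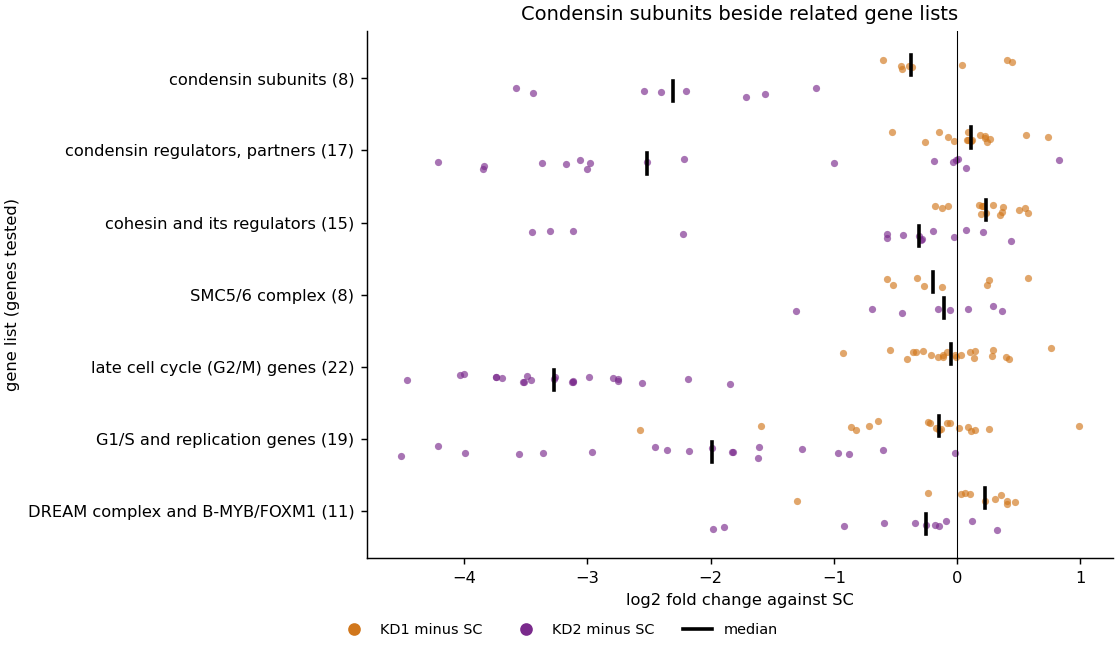
Log2 fold changes against SC (x axis) of the tested genes of each list (y axis, number of genes in parentheses), with a point per gene for KD1 and KD2 and a bar at the median. With KD2 the condensin median of -2.30 lies between those of late cell cycle genes, -3.27, and of G1/S and replication genes, -1.99, and the cohesin and SMC5/6 medians lie at -0.31 and -0.11.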

How the data were processed

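Transcripts of H1299 cells, grown in 10% serum, were measured on 6 Affymetrix-type arrays from 250 ng of RNA each, per the labels' protocols. Values were deposited as log2 expression per probe set, judged from their range. The submitters' processing notes name GCRMA with no version. This method adjusts for probe sequence and array differences and holds dim probe sets at a floor, so that falls of dim transcripts are understated. The lowest value of the table was taken by 37.7% to 38.7% of an array.

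Of 54675 probe sets, 62 were controls, 41091 carried 1 symbol in the platform annotation, 1801 several and 11721 none, and only those with 1 were named. A gene was represented by its brightest probe set over the 6 arrays and tested at a mean of at least 4, which left 10526 of 19775 genes. One limma model (version 3.58.1, R version 4.3.3; 3 residual and 2.09 prior degrees of freedom) gave two-sided tests, with Benjamini-Hochberg adjustment over all tested genes. Errors are moderated SEs unless named otherwise. The number of arrays limits the precision, and the median SE for KD2 minus SC was 0.17.

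The subunits and gene lists were chosen with earlier results of these data known. All 8 subunits are named. Other genes were named by rule: up to 3 of each list with the smallest adjusted p for each shRNA (examples of these are given), and the gene most correlated with each subunit and the 5 most correlated with their mean. Replicate numbers come from the titles. As a check of pairing, same-numbered arrays deviated together from their group means over tested genes. The correlations were 0.53 (KD1 with KD2), 0.75 (KD1 with SC) and 0.51 (KD2 with SC). No label states a pairing, so the main model and the permutation tests used no block, and their errors include the replicate difference. Values with the replicate number as a block are given where they change a call. Alternatives covered filters, probe set choice, normalization, the block, the variance model and omission of each array.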

Additional observations from a re-analysis of the deposited data

Results flagged for a closer look

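The effects of the shRNAs, each measured against the same SC arrays, differed in 7 subunits by the limma test of KD1 minus KD2 (adjusted p under 0.05). The log2 differences were 3.14 for NCAPG, 3.08 for NCAPH, 2.24 for NCAPD2, 2.12 for NCAPD3, 2.01 for SMC2, 1.95 for SMC4 and 1.93 for NCAPG2. NCAPH was dim in KD2 cells (mean 3.78), so its difference has no exact size. In each of these the KD1 arrays were both above the KD2 arrays, in replicate 1 and in replicate 2. What separates the shRNAs was not tested.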

How the results depend on the processing

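The direction of all 8 subunits with KD2, and of KD1 minus KD2, held under every alternative run. NCAPH2 gave no value at a mean of at least 6, when its probe sets were averaged or without probe sets marked _x_at, _s_at or _a_at, and NCAPH none at a mean of at least 6. For KD2, subunits called numbered 1 with no filter on dim probe sets and 0 to 8 when an array was left out. KD1 minus KD2 gave 1 with no filter and 1 to 8 with an array left out. KD1 gave 0 throughout. In the mean of both shRNAs the count was 0 with no filter, 2 with a variance trend, 3 at a mean of at least 6, without probe sets marked _x_at, _s_at or _a_at where another exists, with quantile normalization, with median centring or without tied lowest values, 6 with the replicate block, and 0 to 1 with an array left out.

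Over all genes, no filter gave 332 calls for the mean, 311 for KD1, 1470 for KD2 and 2477 for KD1 minus KD2. The replicate block gave 3670 for the mean, 3117 for KD1 and 5324 for KD2. A fit of only the compared groups gave 191 for KD1 and was not run for the mean, which needs all 3 groups. Leaving out an array gave 0 to 457 for the mean, 0 to 191 for KD1, 624 to 2928 for KD2 and 1874 to 3718 for KD1 minus KD2. Where an array left out gave 0 calls by limma, genes with an unadjusted p under 0.05 numbered 2247 to 2818 for the mean and 2306 to 2370 for KD1. These compare with 1318, 1213, 3264 and 4327 as reported. Fewer arrays leave 2 residual degrees of freedom; the cause of the other shifts was not tested.

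With KD1, where no subunit passed, 5 subunits changed sign under an alternative. SMC2 turned to -0.39 without probe sets so marked. With an array left out NCAPD2 ran from -0.38 to 0.45, NCAPG from -1.01 to 0.11, NCAPH from -1.21 to 0.48 and NCAPH2 from -0.93 to 0.15. Condensin I minus II ran from -0.18 to 0.058 for KD1, -1.35 to -1.20 for KD2, -0.74 to -0.60 for the mean and 1.10 to 1.34 for KD1 minus KD2. Leaving out NCAPH and NCAPH2, chosen after seeing the data, moved it to -0.77 for KD2, -0.44 for the mean and 0.66 for KD1 minus KD2.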
